A study of Mus musculus with 244 samples.

Results

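Sohlh1, Sohlh2, Figla, Nobox, Lhx8 and Taf4b encode transcription factors of the early mouse oocyte, and their transcripts were followed here cell by cell. They were taken by name, not by their values, and are 6 of the 25122 named genes of the count table. SOHLH1, SOHLH2 and FIGLA are basic helix-loop-helix proteins, which bind DNA as dimers at short sites called E-boxes. NOBOX is a homeodomain protein and LHX8 a LIM-homeodomain protein, while TAF4B is a variant of a subunit of TFIID, the complex that sits at core promoters. Mouse females that lack one of these genes lose oocytes or fail to build follicles around the time of birth, and several oocyte genes, among them those for the zona pellucida and for growth factors such as GDF9 and BMP15, depend on them.

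Single oocytes and single somatic cells had been picked from ovarian follicles of outbred CD-1 mice aged 6 days, and no treatment is named for any cell. The follicle stages were primordial (a resting oocyte with flat pre-granulosa cells), transitioning, primary and secondary (growing). There were 13, 19, 20 and 7 oocytes and 40, 47, 56 and 42 somatic cells of these stages in that order. The label "somatic" covers all cells around the oocyte. The labels do not tie cells to animals, and the cells of a stage on 1 plate were therefore counted as 1 sample. No test was run, and all intervals below are 95% intervals. Those of levels and ratios cover counting error only. Those of shares of cells take each cell as independent, and leave out differences between plates, stages and animals. Levels are given as CPM, the count of a gene scaled to a total of 1000000 over the 13266 genes that all 6 library plates list. The total behind a cell ranged from 1223 to 489780 in oocytes (median 46685.5) and from 2485 to 205315 in somatic cells (median 29205). In the shallowest oocyte 1 read was therefore worth 818 CPM.

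A plate lists a gene for all of its cells or for none. Sohlh1, Sohlh2 and Taf4b had values on all 6 plates (59 oocytes and all somatic cells). Nobox had values on plate 1 only (13 oocytes), Figla on plates 1 and 3 (13 oocytes, all on plate 1) and Lhx8 on plate 4 only (15 oocytes), and all comparisons were kept within plates. Stage and plate overlap in part. Plate 1 held 5 primordial, 1 transitioning and 7 primary oocytes, plate 2 held 7 primordial and 1 primary, and plate 4 held 15 transitioning. Plate 5 held 1 primordial, 4 primary and 5 secondary oocytes, and plate 6 held 3 transitioning, 8 primary and 2 secondary. On plate 1, the cell metadata give the time code of secondary follicles for 3 of the primordial oocytes (replicates 2, 3 and 4), and these share a second plate code of the metadata with 6 of the 7 primary oocytes.

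The cell labels were checked against marker genes. All oocyte markers a plate lists (4 to 7 of 8, among them Dazl, Ooep and Bmp15) had reads in the oocytes of each plate and stage. Granulosa markers (Foxl2, Amh, Inha and 4 others, of which 3 to 6 were listed) summed to at most 1023 CPM in any oocyte, while their median over the somatic cells of a stage lay between 8523 and 74194 CPM. Collagen and other stromal markers reached 96067 CPM in a single cell labelled somatic, so that label holds more than granulosa cells. The authors had removed somatic cells that scored high for a set of oocyte genes to which Sohlh1, Nobox, Figla and Lhx8 belong, and levels in somatic cells are those left after that step.

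The promoters of the pair Sohlh1 and Sohlh2 are shown because the E-box is the type of site that their own products bind. They are the bases of the RefSeq promoter window (GRCm38.p6) that lie before the GENCODE start of the gene, printed 5′ to 3′ on the strand of the gene, with each match to the E-box letters CANNTG in capitals. Promoters were found for 5 of the 6 genes.
Sohlh1 (chr2:25847249-25847498, minus strand): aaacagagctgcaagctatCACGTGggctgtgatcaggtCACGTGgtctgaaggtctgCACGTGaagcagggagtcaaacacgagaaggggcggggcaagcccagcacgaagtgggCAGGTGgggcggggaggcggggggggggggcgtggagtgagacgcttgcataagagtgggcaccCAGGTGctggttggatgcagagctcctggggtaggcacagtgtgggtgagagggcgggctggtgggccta
Sohlh2 (chr3:55181794-55182027, plus strand): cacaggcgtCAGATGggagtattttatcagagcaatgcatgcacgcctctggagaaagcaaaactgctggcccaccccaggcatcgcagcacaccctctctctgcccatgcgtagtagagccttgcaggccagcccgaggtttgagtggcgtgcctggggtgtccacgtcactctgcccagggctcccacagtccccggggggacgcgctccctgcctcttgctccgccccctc
The Sohlh1 promoter held 5 E-boxes in 250 bases. Of these, 3 read CACGTG and lie closest together, at the end far from the start, and 2 read CAGGTG and lie nearer to it. Sohlh2 held 1 E-box in the bases shown, of the letters CAGATG. In windows of 300 bases (250 before to 50 after the start), searched on both strands, CANNTG occurred in 72.3% of 32851 promoters, CACGTG in 7.15% and CACGTG at least 3 times in 29, or 0.0883%. The RefSeq windows held 4 CANNTG matches at Figla, 2 at Nobox and 0 at Lhx8. The start in RefSeq is not always that of GENCODE, and the Figla window (chr6:86016941-86017240) lies wholly inside the GENCODE gene given below and not before its start. The homeobox letters TAATTG and TAATTA (in 8.0% and 5.29% of promoters) occurred at none of the 5. A match is a match of letters and is not a bound site.

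Sohlh1 was the helix-loop-helix member with the widest range between oocytes. It lies on chromosome 2 (25842995 to 25847248, minus strand; GENCODE M21 on GRCm38). Reads were found in 56 of 59 oocytes, or 94.9% (exact binomial interval 85.9 to 98.9%), and in 83.6% of the 55 oocytes that could be thinned to 10000 counts. On plate 1 the 5 primordial oocytes had 1533, 4672, 5616, 6867 and 7963 CPM. The transitioning oocyte of that plate had 632 CPM, and the 7 primary oocytes ranged from 1001 to 6540 with a median of 5859 CPM. The stages of plate 1 overlapped over most of their range. The 3 oocytes with the lowest Sohlh1 there (632, 1001 and 1533 CPM) were of 3 different stages and carried the same metadata plate code, which no other oocyte of the plate carried.

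Primordial oocytes of plate 2 were lower than those of plate 1. Their Sohlh1 ranged from 20.9 to 4221 with a median of 339 CPM, and 6 of the 7 were at or below 762 CPM, under the lowest of plate 1. The primary oocyte of plate 2 had 2479 CPM. The 15 transitioning oocytes of plate 4 ranged from 542 to 14076 with a median of 4251 CPM. On plate 5 the primordial oocyte had 4137 CPM, the 4 primary oocytes 93.4, 98.4, 147.2 and 337 CPM and the 5 secondary oocytes 0, 0, 42.8, 84.3 and 111.8 CPM. The primordial oocyte there was above all 9 oocytes of growing follicles, and it also carried granulosa marker reads (728 CPM, against at most 235.6 CPM in the other 9), whose part in its level was not tested. On plate 6 the 3 transitioning oocytes had 34.4, 803 and 4186 CPM, the 8 primary oocytes ranged from 57.6 to 1441 with a median of 598 CPM, and the 2 secondary oocytes had 0 and 48.9 CPM. Primary oocytes thus differed by plate, with medians of 5859, 122.8 and 598 CPM on plates 1, 5 and 6. Stage and plate could not be told apart across plates.

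**Figure D1:**
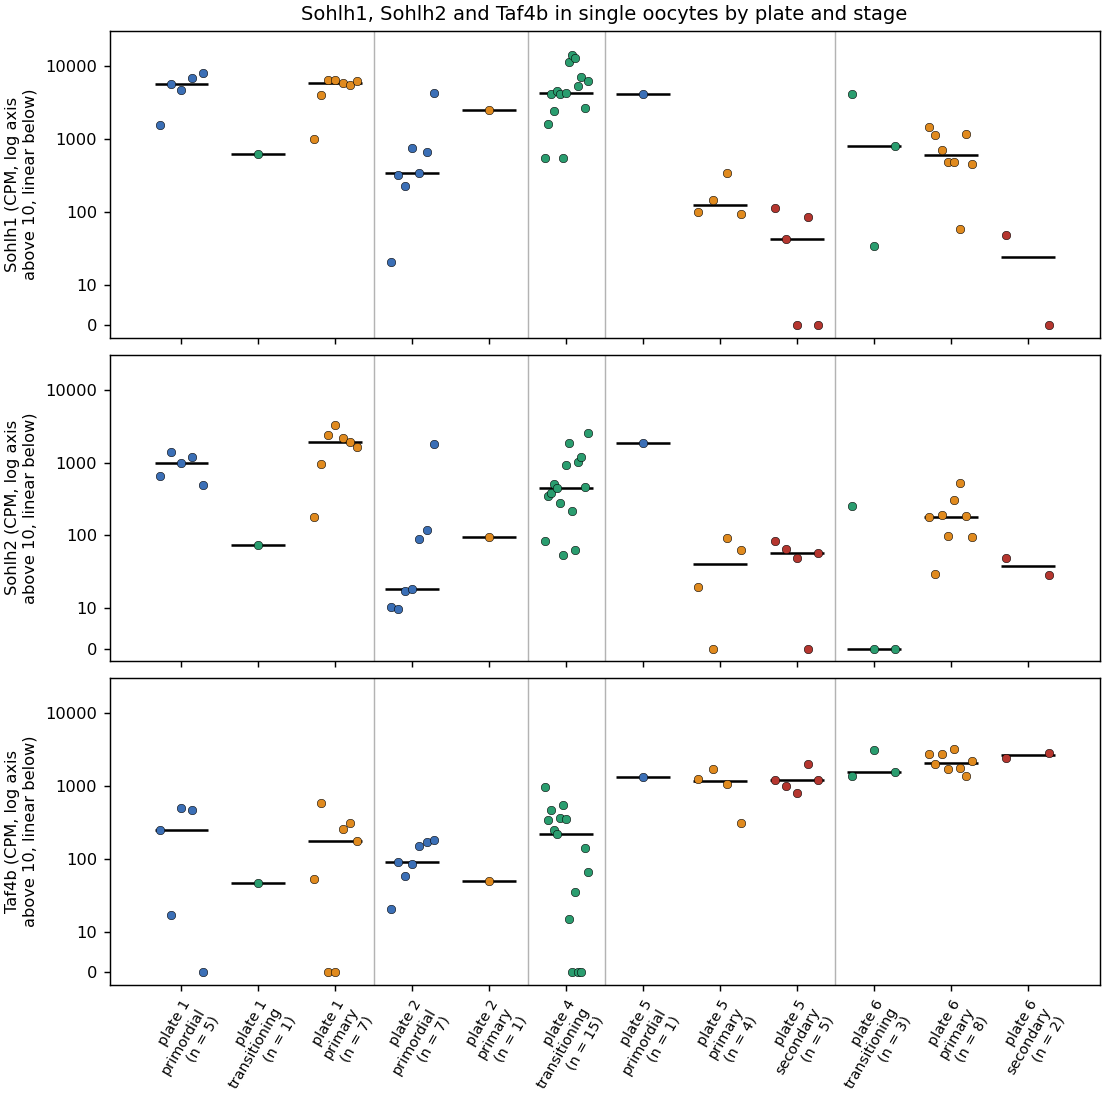
Sohlh1 (top), Sohlh2 (middle) and Taf4b (bottom) in each of the 59 oocytes, in CPM on an axis that is logarithmic above 10 and linear below, by plate and follicle stage. Points are single cells and bars are medians. Sohlh1 had medians of 122.8 and 42.8 CPM in primary and secondary oocytes of plate 5, and Taf4b sat between 1370 and 3200 CPM in all oocytes of plate 6.

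Sohlh2, the partner gene on chromosome 3 (55182028 to 55209957, plus strand), had reads in 55 of 59 oocytes (93.2%, interval 83.5 to 98.1%). With at least 3 reads asked for, the share was 72.9%, so a good part of its detections were of 1 or 2 reads. On plate 1 the primordial oocytes had 498, 657, 999, 1195 and 1400 CPM. The transitioning oocyte had 74.7 CPM, and the primary oocytes ranged from 178.2 to 3270 with a median of 1911 CPM, so 5 of the 7 were above all primordial oocytes. In the primordial oocytes of plate 2 it ranged from 9.92 to 1814 with a median of 18.2 CPM, and on plate 4 from 54.2 to 2555 with a median of 448 CPM. The primordial oocyte of plate 5 had 1829 CPM, the primary oocytes 0, 19.7, 62.2 and 92 CPM and the secondary oocytes 0, 49.5, 57.5, 64.3 and 83.9 CPM. On plate 6 the transitioning oocytes had 0, 0 and 253 CPM, the primary oocytes 30.1 to 518 (median 181.4) and the secondary oocytes 28.5 and 48.9 CPM. As with Sohlh1, primordial oocytes of plate 2 and the growing oocytes of plates 5 and 6 were the low ones. The same cell, primordial replicate 12, held the highest Sohlh1 and the highest Sohlh2 of plate 2.

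Figla and Nobox could be read on plate 1 only, where reads of both were found in all 13 oocytes (100%, interval 75.3 to 100%). Figla, a regulator of the zona pellucida genes, lies on chromosome 6 (86016171 to 86020996, plus strand). It had 1163, 1493, 1892, 2169 and 2455 CPM in primordial oocytes, 311 CPM in the transitioning oocyte and 481 to 6373 CPM (median 2656) in primary oocytes. Its 2 highest values, 6373 and 5723 CPM, rest on 8 and 7 reads in cells of 1255 and 1223 counts, and without them the primary oocytes reached 2773 CPM, close to the primordial range. Nobox, also on chromosome 6 (43303674 to 43309554, minus strand), had 421, 4479, 6290, 8650 and 9315 CPM in primordial oocytes, 1509 CPM in the transitioning oocyte and 3697 to 6962 CPM (median 5650) in primary oocytes. The primary oocytes lay inside the primordial range of Nobox. Primordial replicate 1, at 421 CPM, stood below the other 12 oocytes in Nobox, while its Sohlh1 (1533 CPM) and Sohlh2 (657 CPM) were not the lowest of the plate.

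Per kilobase of merged exons, the scale on which genes can be set beside each other, Sohlh1, Figla and Nobox were the leading members on plate 1. Their levels in CPM per kilobase had medians of 4357, 2263 and 3126 in primordial and 4545, 3178 and 2808 in primary oocytes. Sohlh1 was the highest of the 5 listed members in 5 of the 13 oocytes, Figla in 4 and Nobox in 4. Sohlh2 had medians of 423 and 808 CPM per kilobase, and Taf4b, at 49.1 and 34.2, was the lowest in all 13. On plate 5, where 3 members are listed, Taf4b was instead the highest per kilobase in 7 of 10 oocytes.

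**Figure D2:**
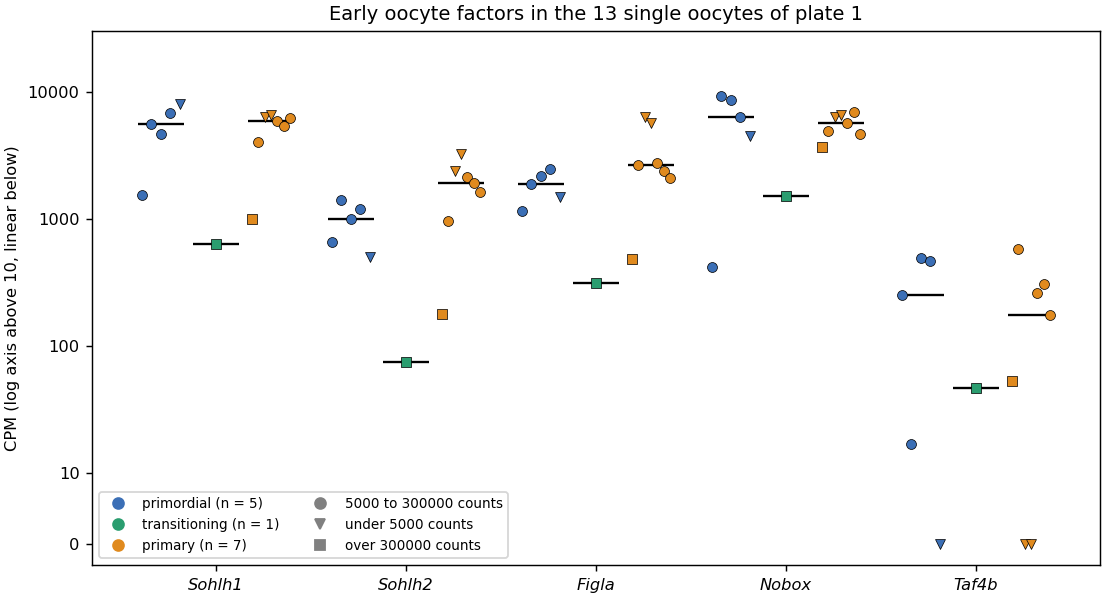
The 5 members listed on plate 1 in its 13 oocytes, in CPM (logarithmic above 10, linear below). Colours give the stage, bars are medians, triangles mark 3 oocytes of under 5000 counts and squares 2 oocytes of over 300000 counts. The primary oocyte of over 300000 counts lies below the other primary oocytes in Sohlh1 (1001 CPM), Sohlh2 (178.2 CPM), Figla (481 CPM) and Nobox (3697 CPM).

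Lhx8, on chromosome 3 (154306294 to 154330659, minus strand), was read on plate 4 only. A noncoding gene begins beside it on the other strand, and whether counting used strand is not given in the sources used here. All 15 transitioning oocytes had reads (100%, interval 78.2 to 100%), from 178.8 to 3953 CPM with a median of 1785 CPM. Pooled over the cells it was at 1815 CPM (exact Poisson interval 1756 to 1876). Its range was narrower than that of Sohlh1 on the same plate (542 to 14076 CPM). The 3 oocytes with the highest Sohlh1 (11297, 12796 and 14076 CPM) had 178.8, 1495 and 650 CPM of Lhx8, and the lowest in Sohlh1 (542 CPM) had 2545. The value of 650 CPM is 3 reads in a cell of 4618 counts. Spearman's rho between Lhx8 and Sohlh1 was -0.20 over the 15 cells (Pearson's r of log2 values -0.32, and 0.16 without the 2 cells farthest from the median of Lhx8). The 15 cells carry 4 metadata plate codes of 2 to 5 cells each. The 2 cells of 1 code held 2 of the 3 highest Sohlh1 values and the 2 lowest Lhx8 values, and the part of that code was not tested.

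**Figure D3:**
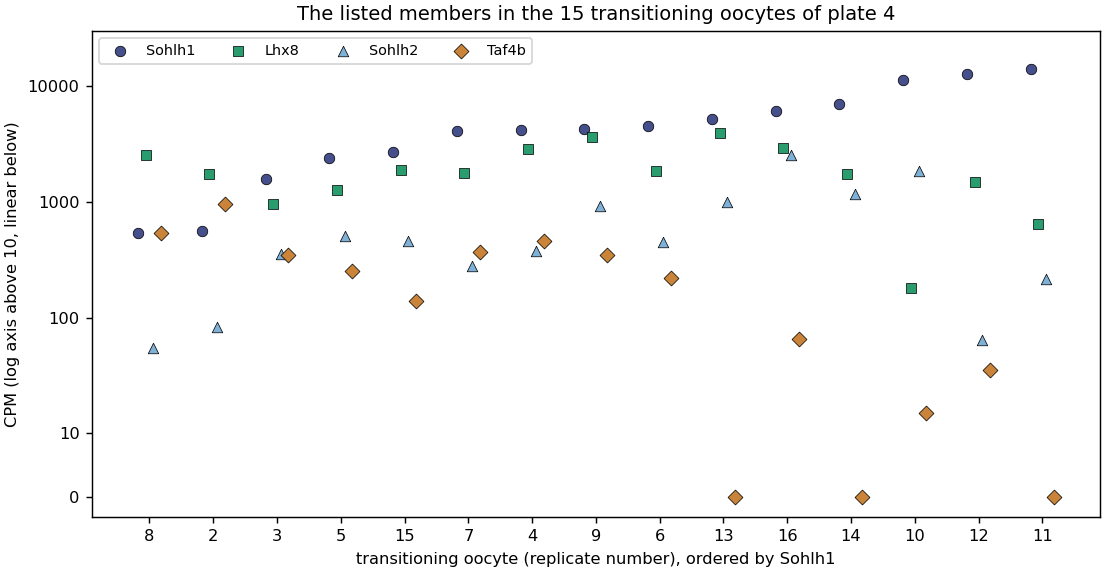
Sohlh1, Lhx8, Sohlh2 and Taf4b in the 15 transitioning oocytes of plate 4, in CPM (logarithmic above 10, linear below). Cells are ordered by Sohlh1 and named by replicate number. Taf4b was at 0 in 3 cells and Lhx8 had reads in all 15. Taf4b lay between 220 and 956 CPM in the oocytes of 2 metadata plate codes and between 0 and 140.2 CPM in those of the other 2. In replicate 11, at 0, 1 read was worth 216.5 CPM.

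Taf4b, on chromosome 18, was highest on other plates than the helix-loop-helix pair. It had reads in 53 of 59 oocytes (89.8%, interval 79.2 to 96.2%). On plate 1 the primordial oocytes had 0, 17, 253, 465 and 495 CPM, the transitioning oocyte 46.7 CPM and the primary oocytes 0 to 584 (median 176.1). The 3 zeros of plate 1 are the oocytes of under 5000 counts, in the deepest of which 1 read was already worth 498 CPM. Plate 2 primordial oocytes ranged from 20.9 to 180 (median 91.8) and plate 4 oocytes from 0 to 956 (median 220). On plate 4 its values divided without overlap by metadata plate code. The 8 oocytes of 2 codes lay between 220 and 956 CPM with Sohlh1 at 542 to 4525 CPM. The 7 of the other 2 codes lay between 0 and 140.2 CPM with Sohlh1 at 2699 to 14076 CPM. Among these, replicate 11 had 4618 counts, so 1 read was worth 216.5 CPM. Its 0 of Taf4b therefore does not set it apart from the low edge of the other codes. How many genes at large divide by these codes was not counted. On plate 5 the primordial oocyte had 1314 CPM, the primary oocytes 311, 1074, 1239 and 1737 CPM and the secondary oocytes 791, 985, 1202, 1208 and 1981 CPM. On plate 6 the transitioning oocytes had 1371, 1534 and 3160 CPM, the primary oocytes 1370 to 3200 (median 2077) and the secondary oocytes 2398 and 2875 CPM. All 13 oocytes of plate 6 were above the highest of plates 1, 2 and 4. The primordial oocyte of plate 5 lay among the growing oocytes of its own plate and above all primordial oocytes of plates 1 and 2, so that the level differed by plate at the same stage.

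The design allows 3 comparisons of stages within plates, each given as the log2 ratio of pooled CPM with an interval from how the summed counts divide between both groups (exact binomial). A gene was counted as higher or lower at a log2 ratio of 1 in size. Primary against primordial oocytes of plate 1 gave -1.40 (-1.51 to -1.28) for Sohlh1, -1.13 (-1.37 to -0.90) for Sohlh2, -1.13 (-1.31 to -0.96) for Figla, -0.75 (-0.83 to -0.66) for Nobox and -1.52 (-2.03 to -1.02) for Taf4b. By this count 4 of 5 members were lower and 0 higher, where 54% of the 4295 genes tested were lower and 5.26% higher. The values rest on 1 library. Primary replicate 1 holds 336765 of the 429201 counts of its group, and without it the ratios were 0.081, 0.62, 0.33, -0.28 and 0.0021 in the same order, with 11.3% of 4017 genes lower and 8.0% higher. Within the metadata plate code that 3 primordial and 6 primary oocytes share, they were -0.076, 0.52, 0.23, -0.50 and -0.052. No member reached a log2 ratio of 1 in size in either.

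On plate 6, primary against transitioning oocytes gave -1.26 (-1.59 to -0.94) for Sohlh1, 0.84 (-0.30 to 2.23) for Sohlh2 and 0.11 (-0.15 to 0.37) for Taf4b. So 1 of 3 members was lower, against 3.91% of 1713 genes, and 0 were higher, against 5.72%. The Sohlh1 value also rests on 1 cell. Without transitioning replicate 17 (4186 CPM) the log2 ratio was 1.43, in the other direction, and Sohlh2 was 1.35. The other 2 transitioning oocytes, at 34.4 and 803 CPM, lay below or within the primary range.

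Sohlh1 was lower in secondary than in primary oocytes on both plates that hold them. On plate 5 its pooled level was 48.8 against 160.5 CPM, a log2 ratio of -1.72 (-3.08 to -0.52), and the single cells overlapped (0 to 111.8 against 93.4 to 337 CPM). These are sums of 8 and 24 reads. On plate 6 it was 26.3 against 755 CPM, a log2 ratio of -4.84 (-7.90 to -2.97) with 2 reads in the secondary oocytes. The cells did not overlap in CPM but did in reads. The lowest primary oocyte (57.6 CPM) held 1 read in 17370 counts, and the highest secondary oocyte (48.9 CPM) held 2 reads in 40863. How many genes at large show no overlap was not counted. Leaving out any cell of a group of up to 7 kept the ratio between -2.36 and -1.19 on plate 5. On plate 6 it was -3.95 without secondary replicate 7, where 2 reads remained. Without secondary replicate 5 it was -3.14, where 0 reads remained and the floor of 3 reads was used, so this is not a measured ratio. Sohlh2 was at 0.45 (-1.20 to 2.22) on plate 5 and at -2.17 (-4.50 to -0.54) on plate 6, where the secondary oocytes hold 3 reads in all. Taf4b was at 0.045 (-0.26 to 0.35) and 0.18 (-0.055 to 0.41), with intervals that include 0. On plate 6, 2 of 3 members were lower, where 44% of 1647 genes were lower and 2.06% higher, a share that does not set the pair apart from genes at large by count. On plate 5 only Taf4b passed the filter of at least 50 reads in both groups together, where 25% of 1509 genes were lower and 2.72% higher.

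Genes known to depend on these factors were set beside them. In the 14 genes of that list (among them Gdf9, Bmp15, Mos, Zp1, Zp2, Zp3, H1foo, Nlrp14 and Kit) 6 were listed and tested on plate 1. Of these, 5 were higher and 1 lower in primary oocytes, where 5.26% of all genes were higher and 54% lower. The median log2 ratio of the 6 was 2.32 against -1.08 over all genes. Without primary replicate 1 none of the 6 passed a log2 ratio of 1 in either direction, where 8.0% of all genes were higher and 11.3% lower. The median of the 6 was then 0.36, against -0.0045 over all genes. Bmp15, which encodes a growth factor of the oocyte, was then at 0.60 and Kit, the receptor that drives oocyte growth, at 0.23. On plate 6, 6 members were tested. From transitioning to primary 0 of them were higher or lower (median 0.27, all genes 0.02), against 5.72% higher and 3.91% lower of all genes. From primary to secondary 1 was higher and 0 lower (median 0.03, all genes -0.85), against 2.06% higher and 44% lower of all genes. The member that was higher was Bmp15, at 26833 against 13178 CPM and a log2 ratio of 1.03 (0.95 to 1.10). On plate 5 Bmp15 was at 0.77 (0.68 to 0.85), and 0 of 3 tested members passed, against 2.72% higher and 25% lower of all genes.

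Other lists gave few tested members. A list of 18 gene names held TFIID subunits, the company of TAF4B, with Taf4 under 2 names, and the Tbp relative Tbpl1, which is not a subunit. Of the list, 7 were tested on plate 1. Of these 4 were lower and 0 higher, where 54% of all genes were lower, with a median of -1.06 against -1.08 over all genes. Without primary replicate 1, 2 of 6 were lower and 1 higher, where 11.3% of all genes were lower and 8.0% higher. On plate 6, 4 were tested. Between primary and transitioning oocytes 0 of them differed, where 5.72% of all genes were higher and 3.91% lower. In secondary oocytes 3 were lower, where 44% of all genes were (median -1.42, all genes -0.85). Those were Tbpl1 and the subunit genes Taf11 and Taf7, with Taf7 at a log2 ratio of -1.08 (-1.76 to -0.47). In the secondary oocytes Tbpl1 had 0 reads and Taf11 had 6. Taf4b, at 0.18 on that plate, was not lower with these genes. On plate 5, 1 of 4 was lower, the same share as the 25% of all genes. It was the TATA-binding protein gene Tbp, at -1.54 (-1.97 to -1.12). Of the helix-loop-helix partners and inhibitors (Tcf3, Tcf4, Tcf12 and Id1 to Id4, a list of 7), 1 was tested on plate 6, Tcf12, the gene of an E-protein partner. It was higher in primary than transitioning oocytes at 1.15 (0.58 to 1.78), where 5.72% of all genes were higher. On plate 1, 1 was tested and did not pass, at 0.59, and on plate 5 none was tested. Of 12 other oocyte factors, 4 were tested on plate 1, with 2 higher and 1 lower, where 5.26% of all genes were higher and 54% lower. Without primary replicate 1, 0 of 2 passed, where 8.0% of all genes were higher and 11.3% lower. Foxo3, which holds primordial oocytes at rest, was the lower one with all cells, at -1.20 (-1.34 to -1.06), and at 0.29 without that cell. On plate 6, 1 was tested between transitioning and primary oocytes, Tbpl2, at -0.72 (-1.57 to 0.19).

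Across single oocytes the level of Sohlh1 ran against that of Bmp15, a relation looked at after the values were seen. Spearman's rho over the cells of a plate was -0.49 on plate 1 (n = 13), -0.74 on plate 2 (n = 8), -0.73 on plate 4 (n = 15), -0.65 on plate 5 (n = 10) and -0.82 on plate 6 (n = 13). Pearson's r of log2(CPM + 1) was -0.37, -0.63, -0.79, -0.69 and -0.71. Without the 2 cells farthest from the median of Sohlh1 it was 0.20, -0.90, -0.64, -0.94 and -0.72, so the sign did not hold on plate 1. Plate 4 holds 1 stage only. There the oocytes with 542 and 556 CPM of Sohlh1 had 11697 and 7980 CPM of Bmp15. Those with 11297 and 12796 CPM of Sohlh1 had 745 and 501 CPM, and the highest in Sohlh1, at 14076 CPM, had 1949 CPM. That last cell had 4618 counts. Over the 4 metadata plate codes of plate 4, medians of Bmp15 were 3486, 7524, 1347 and 814 CPM. Those of Sohlh1 were 2413, 4105, 12686.5 and 6143 CPM in the same order, and the part of the code was not tested. Between Sohlh1 and the total count rho was -0.58, -0.29, -0.19, 0.35 and -0.26 on plates 1, 2, 4, 5 and 6. Between Bmp15 and the total count it was 0.74, 0.45, -0.16, 0.030 and 0.52, so on plates 1, 2 and 6 the signs were opposite. For Sohlh1 the relation with depth was weak on plates 2 and 6, where Pearson's r was -0.26 and -0.053, against -0.64 on plate 1. The part of depth was not tested. Both levels of a cell share its total, its plate code and its depth, and these are descriptions of cells, not tests.

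On plate 2 a like division inside 1 stage rested on 1 cell. The 6 primordial oocytes with 1542 to 4270 CPM of Bmp15 had at most 762 CPM of Sohlh1. The last, replicate 12, with 1096 CPM of Bmp15, had 4221 CPM of Sohlh1 and was the shallowest, at 55676 counts. Among the other 6, the lowest in Sohlh1 (20.9 CPM) had 2374 CPM of Bmp15. On plate 6 the transitioning oocyte with 4186 CPM of Sohlh1 had 2454 CPM of Bmp15, the lowest of the plate, and the one with 34.4 CPM of Sohlh1 had 16763 CPM of Bmp15. The stage label thus did not fix the Sohlh1 level, as cells of 1 stage and plate spanned both ends. In these groups of plates 2 and 6 the high end was 1 cell each. Sohlh2 against Bmp15 gave rho of -0.38, -0.76, -0.44, -0.22 and -0.24. Taf4b against Bmp15 gave 0.45, -0.05, 0.58, -0.26 and 0.55, with no common sign. Sohlh1 against Sohlh2 gave 0.55, 0.81, 0.36, 0.43 and 0.32, with Pearson's r at 0.85, 0.74, 0.46, 0.22 and 0.26. Without the 2 cells farthest from the median of Sohlh1 this r was 0.38, 0.50, -0.071, 0.61 and -0.075. Its sign thus did not hold on plates 4 and 6. Sohlh1 against Taf4b gave rho of -0.34, 0.50, -0.82, 0.35 and -0.58, where the value of plate 4 spans the metadata plate codes by which Taf4b divided.

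**Figure D4:**
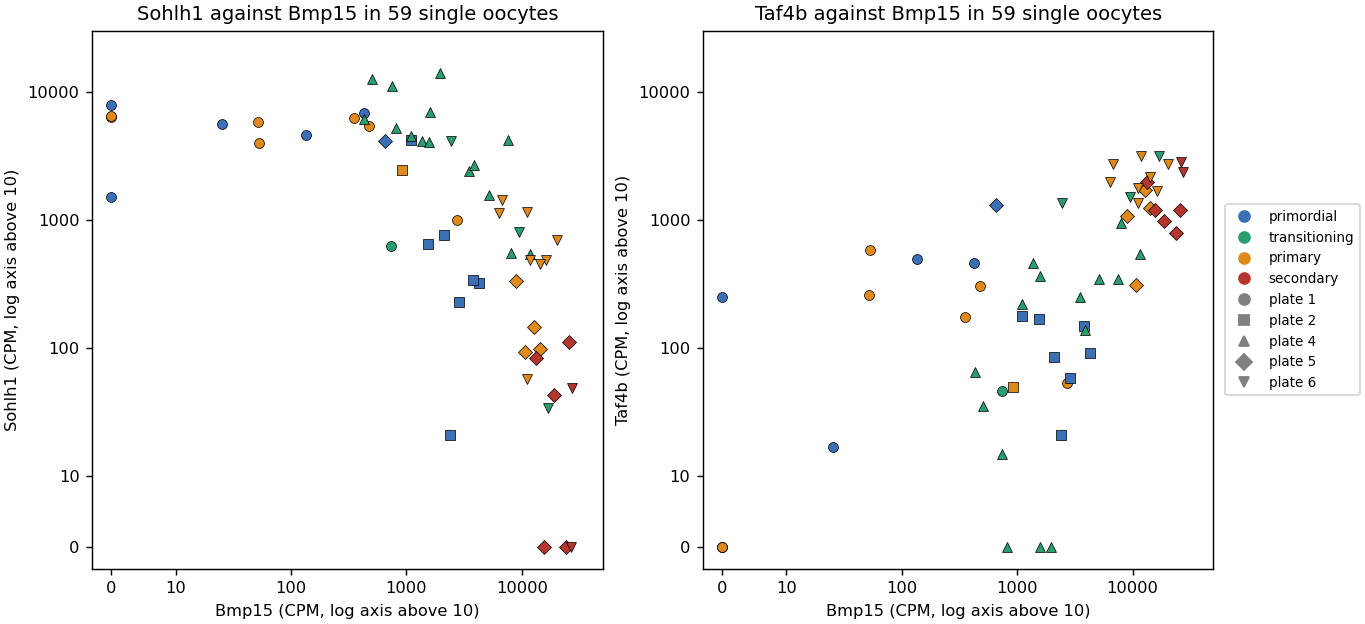
Sohlh1 (left) and Taf4b (right) against Bmp15 in the 59 oocytes, both in CPM (logarithmic above 10, linear below). Colours give the stage and symbols the plate. Sohlh1 lay at or below 111.8 CPM in all 7 secondary oocytes, whose Bmp15 lay between 13362 and 27164 CPM.

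The genes most like each member were sought by Pearson's r of log2(CPM + 1), centred on the mean of each plate. For Sohlh1, over 59 oocytes of 5 plates and 1137 candidate genes with reads in at least 50% of them, these were Ptcd2 (r = 0.69), Cbr1 (0.69) and Otub1 (0.66), and Sohlh2 was at rank 97 with 0.37. For Sohlh2 they were Perp (0.55), Il13ra1 (0.55) and Atg12 (0.54). For Taf4b they were Nanos1 (0.79), Kbtbd7 (0.79) and Btaf1 (0.77), and Sohlh1 was at rank 1089 with -0.15. On plate 1 alone (13 oocytes, 4305 candidates), Figla was most like Nupl1 (0.95), Sohlh2 (0.95) and Mrps7 (0.94), and Nobox most like Stam2 (0.98), Rfwd3 (0.97) and Snx1 (0.96). The shallow cells weigh on these values, since Sohlh2 and Figla both had their highest CPM in the 2 primary oocytes of 1223 and 1255 counts. For Lhx8 over the 15 oocytes of plate 4 they were Rheb (0.93), Dym (0.93) and Srsf6 (0.90). With few cells and many candidates the top of such a list holds high values of r, and none was tested.

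Members were detected together in most oocytes. All 5 listed members had reads in 10 of the 13 oocytes of plate 1 and all 4 in 12 of the 15 of plate 4, and the exceptions lacked Taf4b reads. All 3 had reads in 8 of 8 oocytes on plate 2, in 6 of 10 on plate 5 and in 10 of 13 on plate 6. No oocyte lacked all listed members, and the lowest number with reads in a cell was 2, on plates 5 and 6.

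Levels in somatic cells differed by member and by plate. Of the 3 members listed on all plates, Sohlh2 had reads in the fewest somatic cells. Its pooled level was 607 CPM in oocytes and 0.696 CPM in somatic cells of plate 1, where the latter is 1 read in 37 cells, a log2 ratio of 9.77 (7.29 to 15.07). On plate 4 it was 640 against 0.698 CPM, again 1 read, at 9.84 (7.36 to 15.14). No read was found in 32 somatic cells of plate 2, where the exact binomial interval allows a share of up to 10.9%. Nor was any found in 12 of plate 6, where it allows up to 26.5%. With the somatic sum set at a floor of 3 reads, oocytes were 63.5-fold and 9.72-fold higher there. The log2 ratios were 5.99 and 3.28, with lower limits of 5.68 and 2.94. Plate 5 was unlike these, with Sohlh2 at 319 CPM in oocytes and 150.3 CPM in somatic cells (log2 ratio 1.09, 0.76 to 1.41). Nobox was 35.7-fold higher in oocytes of plate 1 (log2 ratio 5.16, 4.94 to 5.38, and 7.54 without 1 primary somatic cell), Figla 11.2-fold (3.48, 3.23 to 3.73) and Lhx8 55.3-fold on plate 4 (5.79, 5.38 to 6.24). Reads of Lhx8 came from 1 of 16 somatic cells.

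Sohlh1 was higher in oocytes on each plate, at log2 ratios of 3.11 (2.97 to 3.26), 6.42 (5.77 to 7.15), 7.06 (6.65 to 7.5), 1.76 (1.53 to 2.0) and 4.21 (3.27 to 5.35) on plates 1, 2, 4, 5 and 6 with all cells. Plate 1 was at 3.73 without 1 transitioning somatic cell. On plates 2, 4 and 6 all somatic reads of Sohlh1 were in 1 cell. The value of plate 5 rests on 1 oocyte, primordial replicate 13, which held 87.9% of the Sohlh1 and 87.3% of the Sohlh2 reads of its 10 oocytes. Without it the other 9 oocytes, all of primary or secondary follicles, were below the somatic cells of all stages pooled. Sohlh1 was at 102.1 against 211.2 CPM (log2 ratio -1.05, -1.62 to -0.52) and Sohlh2 at 47.8 against 150.3 CPM (-1.65, -2.51 to -0.90). Those somatic cells include the primordial ones, which were at 403 CPM of Sohlh1 and 302 CPM of Sohlh2. Stage for stage, primary oocytes were at 160.5 CPM of Sohlh1 and 40.1 CPM of Sohlh2, against 0 of both in primary somatic cells. Secondary oocytes were at 48.8 against 55 CPM of Sohlh1 and at 54.9 against 17.1 CPM of Sohlh2. Besides primordial replicate 13, no single cell, left out of any plate, turned the direction of Sohlh1, Sohlh2, Figla, Nobox or Lhx8. Taf4b was not restricted to oocytes. Its log2 ratios were -0.54 (-0.80 to -0.28), -0.55 (-0.79 to -0.31), 0.84 (0.63 to 1.07), 0.95 (0.79 to 1.12) and 1.42 (1.19 to 1.66). Taf4b reads were found in 80 somatic cells, or 43.2% of all (36 to 50.7%), against 22.2% (16.4 to 28.8%) for Sohlh1 and 8.11% (4.61 to 13%) for Sohlh2. Counted by plate, 4 of 5 members were higher in oocytes on plate 1 where 20.7% of 6657 genes were, 2 of 3 on plate 2 (18.4% of 4185), 3 of 4 on plate 4 (20.8% of 3995), 2 of 3 on plate 5 (17.3% of 4637, and 0 of 3 without primordial replicate 13, against 15.2% of 4593) and 3 of 3 on plate 6 (26.2% of 2645). The member that was not counted was Taf4b on plates 1, 2, 4 and 5. Oocytes and somatic cells of a plate do not hold the same stages in the same numbers, and these ratios are over all stages of the plate.

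The reads of the pair in somatic cells came mostly from primordial follicles. Somatic cells of 3 stages meet on plate 5. Sohlh1 had reads there in 18 of 21 primordial somatic cells (85.7%, interval 63.7 to 97%). It had reads in 0 of 19 primary cells, which allows up to 17.6%, and in 7 of 26 secondary cells (26.9%, 11.6 to 47.8%). Its pooled level was 403 CPM (359 to 450), 0 and 55 CPM (36.8 to 79). Sohlh2 had reads in 11 of 21, 0 of 19 and 2 of 26 of the same cells, at 302 CPM (264 to 343) in the primordial ones, and 10 of its 11 cells held Sohlh1 too. In the primordial cells no single cell decided this, as the highest held 19.0% of the Sohlh1 reads. Oocyte markers moved with it. Ooep, a gene of the maturing egg, had reads in 21, 0 and 15 cells of these stages, and the summed oocyte markers (4 of 8 listed, all with reads in the primordial cells) had a median of 2807 CPM (147.9 to 9896) in primordial, 0 (0 to 69.3) in primary and 175.3 CPM (0 to 3712) in secondary cells. Their part in the result was not tested, and reads made in a somatic cell and reads carried over from an oocyte cannot be told apart here.

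On plate 1 the primordial somatic cells held Sohlh1 and few reads of Sohlh2. Sohlh1 had reads in 8 of 19 primordial somatic cells, at 572 CPM (507 to 643) from 280 reads, of which 55.4% lay in 1 cell (5083 CPM). Sohlh2 had 1 read in the same 19 cells, Dazl 3 and Bmp15 1, while Nobox had 32, Figla 46 and Ooep 294. Set against Ooep, Sohlh1 was at 95.2% of its reads in these cells and at 55% in primordial oocytes of the plate, and Sohlh2 at 0.34% and 11.9%. Without the cell with most Sohlh1, which also held Ooep, Sohlh1 was at 272 CPM and 59.8% of Ooep, close to the oocytes, and Sohlh2 at 0.48%. Only 4 of the 8 cells with Sohlh1 also held Ooep. One transitioning somatic cell of the plate held Sohlh1 at 2308 CPM and no read of Sohlh2. Nobox had reads in 6 of 37 somatic cells. Its highest, a primary cell at 1781 CPM, also held 36 reads of Figla.

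Taf4b had another order of stages in somatic cells. On plate 5 the primordial ones were at 281 CPM (244.8 to 321), the primary ones at 631 CPM (546 to 726) and the secondary ones at 1049 CPM (963 to 1140), pooled over all cells of the stage. Taf4b reads were present in 11 of 21, 9 of 19 and 18 of 26 of them. In secondary follicles of that plate the oocytes were at 1152 CPM (994 to 1329), and the intervals of oocytes and somatic cells overlapped. The summed granulosa markers of plate 5 had medians of 8523, 52522 and 42361 CPM in the same order of stages, and their part was not tested. On plate 1, 4 of 5 secondary somatic cells had Taf4b reads, at 520 CPM, and 0 of 8 transitioning cells, which allows up to 36.9%. On plate 3, which holds somatic cells only, it was at 542 CPM (503 to 584) in 15 of 22 transitioning cells, where Sohlh1 was at 44.9 CPM in 3, Figla at 44.2 CPM in 4 and Sohlh2 at 0.

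**Figure D5:**
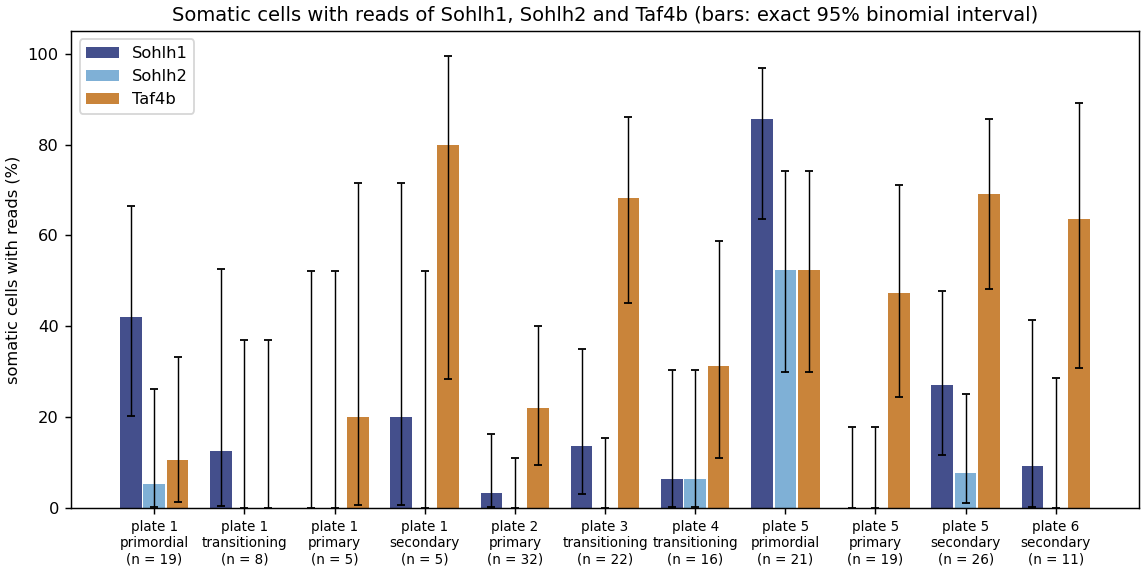
Share of somatic cells with reads of Sohlh1, Sohlh2 and Taf4b by plate and stage, in percent of cells. Bars are shares and error bars exact 95% binomial intervals that take each cell as independent. The single transitioning somatic cell of plate 6 is left out. Sohlh1 reached 85.7% in primordial somatic cells of plate 5 and 0 in the 19 primary ones, where Taf4b was at 47.4%.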

How the data were processed

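The samples were single cells sequenced by SMART-Seq2, with 1 library per cell. Per the submitters' processing notes and the methods, the authors aligned the reads to GRCm38 (mm10) and used Seurat v4. Cells with few genes had been left out, as had cells that scored high for markers of the other cell type, and protein-coding genes kept. The deposited table holds the authors' estimated count per gene and cell, not normalized. Of its values above 0, 17.2% are not whole numbers. A gene a plate does not list has no value. The deposited metadata also give the authors' fraction of reads from ribosomal RNA, which enters no result. SMART-Seq2 carries no molecular identifiers, so floors and the intervals of levels and ratios cover counting error only. Intervals of shares take each cell as independent.

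Of 25149 rows, 27 named by dates were left out. Groups follow the sample titles. The titles and the metadata give different stages for 2 somatic cells of plate 1. Counts were summed per stage and plate and scaled to CPM over the 13266 genes listed on every plate. Genes were tested where both groups together had at least 50 counts and 1 group a CPM of at least 5. "Tested" means that a ratio was computed, and no p-value is given. A sum of 0 was set at 3 counts in ratios. The members and the gene lists were chosen with earlier results of these data known. The text names the 6 members, list members with up to 5 largest ratios per list, marker genes and the 3 genes most like each member. Values of Bmp15, Dazl, Ooep, Kit and Foxo3 outside that rule were chosen after they were seen. Gene positions are from GENCODE M21. Ratios and intervals were tested on simulated data.

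Alternatives were totals over all genes, means of single-cell CPM, TMM factors (edgeR 4.0.16) and median-of-ratios factors (DESeq2 1.42.0), both used for scaling only, cells left out singly or by label, a minimum of 3 counts and cells thinned to 10000 counts. Medians of single cells, cells of at least 5000 counts, the shared plate code, each cell left out of oocytes against somatic cells, and the somatic cell with most Sohlh1 left out were added after seeing the data. Python 3.11.15, numpy 2.4.6, pandas 2.3.3, scipy 1.17.1, matplotlib 3.10.9 and R 4.3.3 were used.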

Additional observations from a re-analysis of the deposited data

Results flagged for a closer look

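In 22 sets of 4 to 10 oocytes (a member in a stage and plate), 2 values lay far from the rest by Dixon's ratio at its 95% value, which chance exceeds in about 1 in 20 sets. Both are of the same cell, primordial oocyte replicate 12 of plate 2, which had 55676 counts against 191670 or more in the other 6. Its Sohlh1 was 4221 CPM where the next was 762 CPM, and its Sohlh2 was 1814 CPM where the next was 119.1 CPM. Its Taf4b, at 180 CPM, was the highest of the 7 but close to the next at 170.8 CPM. Its Bmp15, at 1096 CPM, was the lowest of the 7.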

How the results depend on the processing

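The comparison of primary with primordial oocytes on plate 1 depended most on the processing. Of its 5 members 4 passed a log2 ratio of 1, and 0 passed with totals over all genes, means or medians of single-cell CPM, TMM or median-of-ratios factors, or within the shared plate code, and 2 without the primordial oocytes of another time code. By means of single-cell CPM Sohlh2 was at 0.91 and Figla at 0.81, and by medians Sohlh1 was at 0.061, Sohlh2 at 0.94 and Figla at 0.49. Within the shared plate code Sohlh2 was at 0.52 and Figla at 0.23. Without the primordial oocytes of another time code Sohlh1 was at 0.17 and Nobox at 2.90. With cells left out singly the ratios ranged from -1.60 to 0.081 for Sohlh1, -1.46 to 0.62 for Sohlh2, -1.31 to 0.33 for Figla, -0.96 to -0.28 for Nobox and -1.98 to 0.0021 for Taf4b, and 0 to 4 passed. The primary oocyte of 336765 counts gave each upper end. On plate 6, primary against transitioning, 1 of 3 passed and 2 passed by means of single-cell CPM, TMM and median-of-ratios factors, where Sohlh2 joined at 1.25, 1.04 and 1.011. With cells left out singly 1 to 2 passed and Sohlh1 ranged from -2.02 to 1.43. From primary to secondary oocytes Taf4b on plate 6 moved from 0.18 to 0.66 (TMM) and 0.69 (median-of-ratios), by more than the spread between cells. Of 314 alternatives over all members and comparisons, 290 stayed within the spread between cells, 9 moved beyond it and 15 changed the sign of a ratio that had passed. In oocytes against somatic cells 14 of 18 passed, and 16 to 17 under other scalings, and those scalings turned no direction except for Taf4b on plates 1 and 2. With each cell left out singly, chosen after seeing the data, Sohlh1 and Sohlh2 of plate 5 ranged from -1.05 to 2.02 and from -1.65 to 1.70, each low end being without primordial oocyte replicate 13, and Taf4b of plate 1 turned to 0.05 without primary somatic replicate 56. Taf4b passed 1 when any of 4 cells was left out of plate 4 (up to 1.45) or any of 10 out of plate 5 (up to 1.10), and Sohlh2 of plate 5 fell under 1 when either of 2 somatic cells was. Over all alternatives Taf4b ran from -0.90 to 0.60 on plate 1 and from -0.77 to 1.19 on plate 2. No paired analysis was possible because no test was run and replicate numbers only name cells. Depth limited the 3 oocytes of plate 1 with under 5000 counts, where 1 read was worth at least 498 CPM. It also limited transitioning replicate 11 of plate 4 (4618 counts), where 1 read was worth 216.5 CPM. That cell held 65 reads of Sohlh1, 3 of Lhx8, 1 of Sohlh2 and 0 of Taf4b.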
